A study of Mus musculus with 9 samples.

Results

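The baseline transcriptome of untreated mouse liver was described from the 3 untreated arrays among the 9 of the series, taken by their sample label and not by any measured value. The untreated group was liver of male C57BL/6 mice aged 3 months with no treatment. The other 6 arrays hold livers of mice given an adeno-associated virus that carries either GFP or the human glucocorticoid receptor isoform hGRβ, and they are not used here. Total RNA, 500 ng per sample, was labelled with Cy3 and hybridised to single-colour Agilent 60-mer arrays of mouse genes. No contrast between groups was made and no test was run, so every value below is a description of these 3 arrays, called replicates 2, 3 and 4 after their titles. Nothing in the sources used here states that these replicates were separate animals, so the spread between them may be technical.

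The liver is built mostly of hepatocytes, which make the proteins of blood plasma, clear ammonia through the urea cycle, store and release glucose, make and burn fat, form bile acids and detoxify drugs and steroids. Between the plates of hepatocytes run sinusoids lined by fenestrated endothelial cells, with resident macrophages (Kupffer cells) in the lumen, vitamin A-storing stellate cells in the space beneath the endothelium, and bile ducts lined by cholangiocytes at the portal tracts. Hepatocytes divide their work along the axis from portal tract to central vein, a pattern called zonation.

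A signal is given throughout as the log2 of the processed spot signal minus the log2 of the array's 75th percentile over gene probes, so that a probe at the 75th percentile is at 0. Means are given ± SD (n = 3 arrays). A gene was called detected where at least 1 of its probes was well above background on all 3 arrays, and partly detected where this held on only 1 or 2 arrays. A gene was called not well above background where it held for no probe on any array, which sets a limit of the assay and does not show that the transcript is missing. Each gene stands at its brightest probe. A gene was called bright where that probe lay in the top 5% of the 41174 gene probes (rank 2058 or better). The threshold is a convention: of the genes on the lists below, Aqp9, a glycerol channel, was the last inside it at rank 2057 with 4.18 ± 0.17, and Ctss, a lysosomal protease of macrophages, lay just outside at rank 2062 with 4.18 ± 0.28. Ranks are of spot brightness and not of transcript number, since each 60-mer binds with its own strength. The probes of a single gene had a median range of 3.69 log2 units over the 6854 detected genes with more than 1 probe, so signals of different genes are set side by side only as ranks of spots. Bright genes can hold dim probes too: the dimmest probe averaged -6.70 for Scp2, -3.95 for C4bp, -3.5 for Sod1 and -3.29 for Hmgcs1.

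Of 19759 named genes, 12802 (64.8%) were detected, 3480 (17.6%) were partly detected and 3477 (17.6%) were not well above background. The 1682 bright genes made up 8.51% of all named genes. These shares are the background for every list below: 8.51% bright, 64.8% detected and 17.6% not well above background, with a median signal of -1.55 over all named genes. The lists and their members were chosen with earlier results of these data known, so their shares are descriptions and not independent checks. The signal was concentrated in few spots. The 10 brightest probes held 3.80% of the summed signal of all gene probes, the top 100 held 21.4% and the top 1000 held 66.8%. From the brightest gene to the dimmest detected gene the span was 14.7 log2 units.

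The arrays differed in background. The share of gene spots well above background was 68.6% on replicate 2, 54.0% on replicate 3 and 61.3% on replicate 4, and replicate 2 was hybridised on another slide and scanned on another day than replicates 3 and 4. The lowest signal called well above background was -5.03, -4.11 and -5.06 on replicates 2, 3 and 4. Before scaling, these processed signals were 12.87, 36.28 and 17.99, and the 99th percentile of negative control spots was 7.90, 105.54 and 18.21. On replicates 3 and 4 the dimmest spots called well above background thus lay below that percentile. At most 1 gene spot per array was saturated. Over the 12802 detected genes, 48.3% were highest on replicate 2, 24.4% on replicate 3 and 27.4% on replicate 4, and 4669, 3782 and 4351 were lowest on replicates 2, 3 and 4. Counts of highest and lowest arrays below are read against these. The Y-linked genes Eif2s3y (2.33 ± 0.22), Ddx3y (1.57 ± 0.17), Kdm5d (-1.07 ± 0.19) and Uty (-3.23 ± 0.53) were detected, and Xist, the RNA of the inactive X chromosome, was well above background on 1 array only.

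The given hepatocyte markers were checked first. Their probes are shown because they carry the identity check of the tissue. The probes of Alb (mm7 chr5:90443687-90443746, plus strand), Apoa1 (mm7 chr9:46187961-46188020, plus strand) and Cyp2e1 (mm7 chr7:137190949-137191008, plus strand) read, 5′ to 3′ and all in lower case because no base is singled out:
Alb probe: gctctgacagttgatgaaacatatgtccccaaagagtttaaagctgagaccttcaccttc
Apoa1 probe: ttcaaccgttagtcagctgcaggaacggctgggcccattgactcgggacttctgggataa
Cyp2e1 probe: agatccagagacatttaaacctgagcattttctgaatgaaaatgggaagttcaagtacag

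Alb, which encodes serum albumin, gave 10.70, 9.95 and 9.81 on replicates 2, 3 and 4 and was the brightest gene of the array. Apoa1, the main protein of high-density lipoprotein, gave 8.31, 7.91 and 7.75 (rank 151). Cyp2e1, an ethanol-oxidising cytochrome P450, gave 8.44, 8.02 and 8.11 (rank 119). Cps1, the mitochondrial enzyme that commits ammonia to the urea cycle, gave 6.98, 6.94 and 7.20 (rank 361). All 4 markers were bright, and none of their values on any array was below that of the last bright probe. Of the 23 hepatocyte markers with a probe, 22 were bright and 23 were detected, and their median signal was 7.98. The exception was Hnf4a, the nuclear receptor that directs hepatocyte identity, at 3.58 ± 0.21: it was detected on all arrays but lay outside the top 5%.

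**Figure D1:**
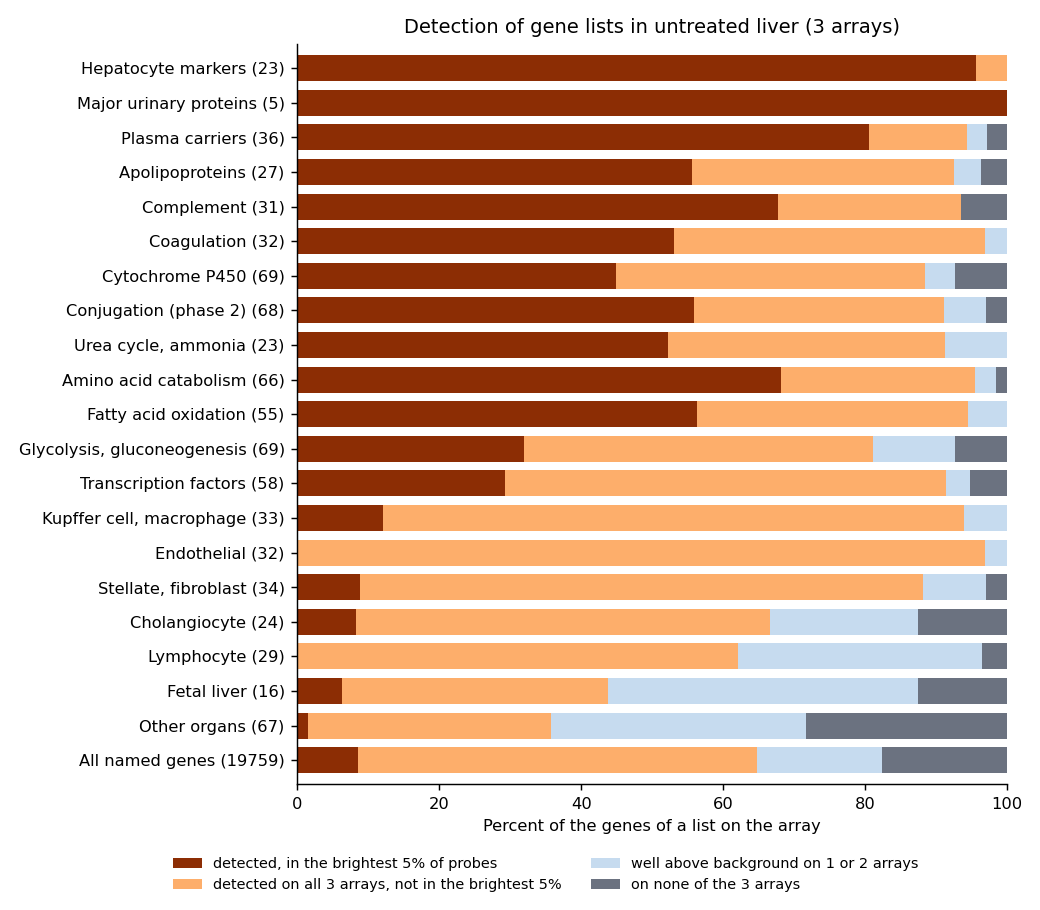
Share of each gene list that was bright, detected without being bright, partly detected or not well above background on the 3 untreated arrays, in percent of the list's genes with a probe. The hepatocyte list was bright in 22 of 23 genes, and the list of genes of other organs in 1 of 67.

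Genes of secreted proteins held ranks 1 to 8. Apoc1 (rank 2, 10.03 ± 0.50) and Apoe (rank 5, 9.72 ± 0.48) encode exchangeable apolipoproteins. Ambp (rank 4, 9.82 ± 0.38) encodes the precursor of alpha-1-microglobulin and bikunin. C3 (rank 6, 9.66 ± 0.33) is the central complement protein, Hp (rank 8, 9.57 ± 0.20) binds free haemoglobin, and Ahsg (rank 16, 9.38 ± 0.33) encodes fetuin-A. The other probe of C3 averaged -0.66 (rank 12007), so the rank of C3 rests on 1 probe. Of the 30 brightest genes, 29 had their highest value on replicate 2, an order that another background correction turned for bright genes, as given with the spread. Serpina1d and Serpina3k, which encode protease inhibitors, belong to families of near-identical copies, so their ranks 7 and 15 cannot be assigned to a single gene with certainty.

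Among 36 carrier and transport proteins of plasma, 29 were bright and 34 were detected, with a median signal of 6.96. Rbp4, the retinol carrier, stood at 9.21 ± 0.28, Hpx, the haem binder, at 8.94 ± 0.32, and Trf, the iron carrier transferrin, at 8.48 ± 0.075. Itih3, an inhibitor chain that binds hyaluronan, gave 7.70, 7.73 and 7.73, so its 3 arrays lay within a small SD of 0.019. A1bg was the only member not well above background. The largest spread among detected members was that of Orm3, an acid glycoprotein of the acute phase, at 0.04, 2.03 and 0.72.

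Of 27 apolipoproteins and lipoprotein-handling genes, 15 were bright and 25 were detected, with a median of 6.01. Apoa2 (9.28 ± 0.22), the second protein of high-density lipoprotein, Apoh (8.31 ± 0.053) and Apoc3 (8.06 ± 0.36), an inhibitor of lipoprotein lipase, completed its 6 brightest with Apoc1, Apoe and Apoa1. Apol8 was not well above background. The list's largest spread was that of Pltp, the phospholipid transfer protein, at 0.48, 1.78 and 0.93.

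Of 32 genes of clotting and fibrinolysis, 17 were bright and 31 were detected, with a median of 4.68 and no member above an SD of 0.5 among those detected. Fgb (9.89, 9.28 and 9.39) and Fgg (9.26 ± 0.27) encode chains of fibrinogen, F2 (9.23 ± 0.37) encodes prothrombin, and Serpinc1 (8.74 ± 0.26) encodes antithrombin. Kng1, the kininogen, stood at 8.15 ± 0.12 and Proc, the anticoagulant protein C, at 7.87 ± 0.092. The complement list had 21 bright and 29 detected members of 31 and a median of 5.36. Vtn (8.74 ± 0.046), Cfb (8.29 ± 0.19) and C4bp (8.23 ± 0.30) were among those below C3. The terminal component C7 and the anaphylatoxin receptor C5ar1 were not well above background.

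The major urinary proteins are small pheromone-binding carriers that male mouse liver secretes in large amounts. All 5 with a probe were bright: Mup1 at 9.87 ± 0.39, Mup3 at 9.32 ± 0.37, Mup5 at 8.85 ± 0.40, Mup4 at 8.68 ± 0.38 and Mup6 at 6.06 ± 0.30. They lie in a gene cluster with close copies, so a probe of one may bind RNA of another, and their order is uncertain. The Mup1 probe shares a run of 31 bases with a probe of another name. Those of Mup3, Mup4, Mup5 and Mup6 share no run of 20 bases or more, and which RNA each bound was not tested.

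**Figure D2:**
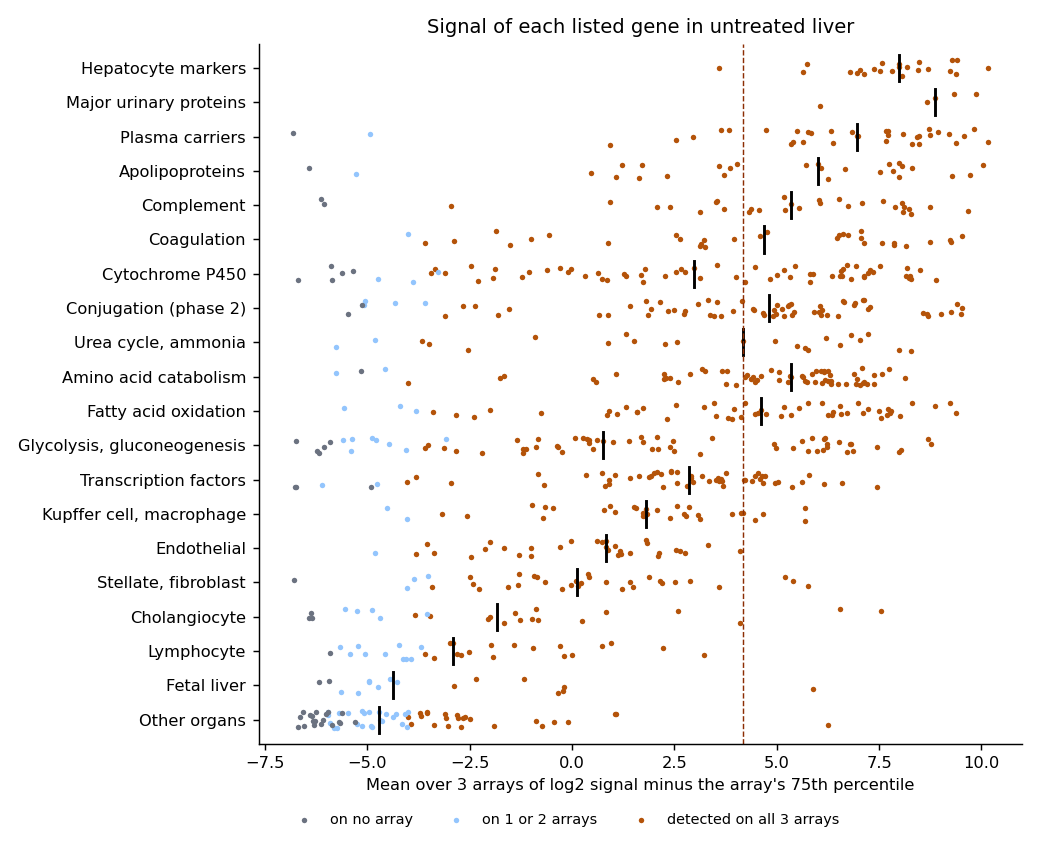
Mean signal of every gene of each list, in log2 units relative to the array's 75th percentile, with 1 point per gene. The carrier proteins centre on 6.96 and the genes of other organs on -4.72.

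Genes known to be sex-biased in mouse liver were set beside the male label. Of 17 male-biased genes, 12 were bright and 16 were detected. Selenbp2 stood at 8.36 ± 0.30, Nudt7 at 8.23 ± 0.39, and Cyp2d9, a testosterone hydroxylase, gave 8.23, 8.23 and 8.24 with an SD of 0.0051. Of 24 female-biased genes, 15 (62.5%) were detected and 5 (20.8%) were bright, against 64.8% and 8.51% of all named genes. The bright 5 were Cyp3a41a (8.50 ± 0.29), Cyp4a14 (7.23 ± 0.42), Cyp2a4 (7.13 ± 0.13), Cyp3a44 (6.72 ± 0.098) and Cyp3a16 (5.88 ± 0.28). Of these 5, 4 belong to subfamilies with close members that male liver expresses, so their signals are uncertain. Which RNA these probes bound was not tested, and the same doubt applies to the male-biased Cyp2d9, whose family has close copies. The probes of Cyp3a41a, Cyp3a44 and Cyp3a16 share no run of 20 bases or more with a probe of another name. The Cyp2a4 probe overlaps that of Cyp2a5 over 38 bases, of which 3 differ. The female-biased A1bg, Cux2, Hao2 and Sult2a2 stayed below that flag on all 3 arrays.

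The cytochrome P450 family oxidises drugs, steroids and fatty acids. Of 69 members with a probe, 31 were bright, 61 were detected, 3 were partly detected and 5 were not well above background, with a median of 2.97. Beside Cyp2e1, the brightest were Cyp2d26 (8.88 ± 0.079), Cyp2d10 (8.29 ± 0.10) and Cyp2a5 (8.26 ± 0.14), all of families with close copies. The 5 members not well above background were Cyp2b23 and 4 enzymes of steroid or vitamin D metabolism outside the liver: Cyp11a1, Cyp11b2, Cyp19a1 and Cyp24a1. The largest spread among detected members was that of Cyp26b1, a retinoic acid hydroxylase, at -1.08, 0.71 and -0.51.

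Conjugating enzymes attach glutathione, sugars, sulfate or other groups to make compounds soluble. Of 68, 38 were bright and 62 were detected, with a median of 4.80. Gstp1 (9.53 ± 0.35) and Gstm1 (9.40 ± 0.16) are glutathione transferases with close copies, and Mgst1, the membrane-bound form, gave 9.93, 9.36 and 9.23. Ces3b (9.26 ± 0.28) is a carboxylesterase. Sult2a2 was not well above background. Of 31 genes of alcohol and aldehyde oxidation and peroxide removal, 23 were bright and 30 were detected: Gpx1 (9.31 ± 0.47) and Sod1 (9.05 ± 0.31) remove peroxide and superoxide, and Uox (8.77 ± 0.18) is urate oxidase. Aldh1a1 (8.70 ± 0.075) oxidises aldehydes.

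Of 23 genes of the urea cycle and ammonia handling, 12 were bright and 21 were detected. Glud1, which releases ammonia from glutamate, stood at 8.27 ± 0.34. The cycle enzymes gave 7.98 ± 0.10 for Ass1 and 7.24 ± 0.054 for Arg1, beside Cps1 at 7.04 ± 0.14. The mitochondrial ornithine enzyme Otc gave 6.46, 5.97 and 6.21 and was bright. It falls outside the rule for named genes and was added as a further enzyme of the cycle. Of 66 amino acid catabolism genes, 45 were bright and 63 were detected, with a median of 5.34. Gnmt, a glycine methyltransferase, stood at 8.13 ± 0.100 and Agxt, which clears glyoxylate, at 7.74 ± 0.23. Dao, the D-amino acid oxidase, was not well above background.

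Glucose metabolism was described by isoform, since for many steps the liver uses its own enzyme form. Of 69 genes of glycolysis, gluconeogenesis and glycogen, 22 were bright and 56 were detected. Fbp1, the gluconeogenic bisphosphatase, stood at 8.78 ± 0.12 and Khk, ketohexokinase, at 8.03 ± 0.14. Pck1, which starts gluconeogenesis from oxaloacetate, gave 6.93, 7.62 and 7.78, with its lowest value on replicate 2.

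Across the isoform sets, all 18 forms taken as the liver's were detected and 14 were bright. Among these, Eno1, Pgam1 and Alas1 are widely expressed, so the split is not one of liver-specific forms against the rest. Of the 31 other forms, 4 were bright, 20 were detected, 8 were partly detected and 3 were not well above background. For glycogen phosphorylase, the liver form Pygl gave 6.77, 6.80 and 6.84, the brain form Pygb -3.95, -3.19 and -3.39, and the muscle form Pygm was not well above background. For glycogen synthase, the liver form Gys2 gave 5.81, 5.98 and 5.81 and the muscle form Gys1 was well above background on 1 array. For arginase, Arg1 gave 7.30, 7.21 and 7.20 and the mitochondrial Arg2 was well above background on 1 array. The 11-beta-hydroxysteroid dehydrogenases showed the same split: Hsd11b1, which regenerates active glucocorticoid, gave 7.21, 6.68 and 6.76 and Hsd11b2, which inactivates it in kidney, was not well above background.

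Not every form taken as the liver's was bright. Pklr, the liver pyruvate kinase, gave -0.10, 1.22 and 0.73. Pfkl gave 0.48, 0.84 and 0.92 (rank 8344), and its other form Pfkm ranked above it at 1.49, 1.79 and 1.95 (rank 5988). Eno1 gave 0.33, 1.40 and 1.25, beside its other form Eno3 at 0.61, 0.33 and 0.31. The 4 bright genes among the other forms were Aldoa (6.15 ± 0.16), Fabp2 (6.25 ± 0.69), Mat2a (4.24 ± 0.32) and Alas2 (4.98 ± 0.10). Aldoa and Mat2a are widely expressed, and Alas2 is the erythroid form of the first enzyme of haem synthesis.

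**Figure D3:**
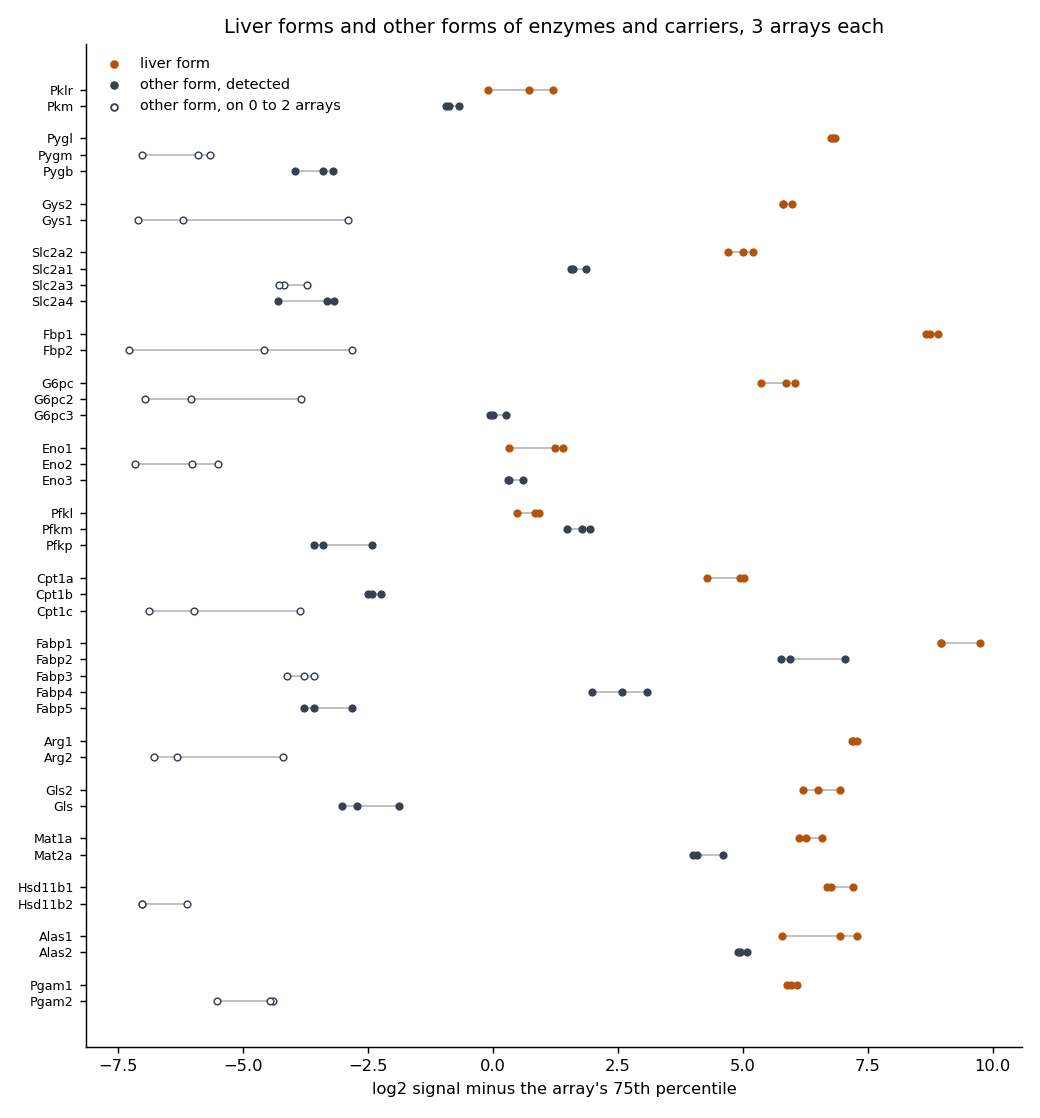
Signal of the forms taken as the liver's and of other forms for most of the enzyme or transport steps, as log2 relative to the array's 75th percentile. The 3 arrays are points, filled where the gene was detected. The liver forms are all filled, and Pygm, Eno2 and Hsd11b2 were never flagged as well above background.

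Of 41 genes of fatty acid synthesis and storage, 16 were bright and 36 were detected. Scd1, the stearoyl-CoA desaturase, gave 7.62, 8.46 and 7.88 and Fasn, fatty acid synthase, gave 7.05, 7.96 and 7.58, each lowest on replicate 2 and highest on replicate 3. Of the 36 detected genes, 23 were highest on replicate 3 and the median of replicate 2 minus the mean of the others was -0.37, which kept its sign under all 5 settings tried. Under normexp background correction 14 were highest on replicate 3 and 18 on replicate 4. Elovl4, which elongates very long fatty acids, was not well above background. Of 55 genes of fatty acid oxidation, 31 were bright and 52 were detected, with a median of 4.62. Fabp1, the liver fatty acid carrier, gave 9.74, 8.98 and 8.97 and Acaa2, a mitochondrial thiolase, stood at 8.88 ± 0.066.

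All 34 cholesterol genes were detected and 16 were bright. Ebp (8.14 ± 0.44) acts late in the pathway and Hmgcs1 (7.74, 7.29 and 6.92) acts early. Of 37 bile acid genes, 17 were bright and 34 were detected. Slco1b2 (8.54 ± 0.51) takes up organic anions, Abcb11 (7.79 ± 0.26) exports bile salts into bile, and Scp2 (8.23 ± 0.17) is a peroxisomal thiolase and sterol carrier. Abcb1a and Fgf15, the latter an intestinal hormone that represses bile acid synthesis, were not well above background.

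Of 45 secreted regulators and growth genes, 16 were bright and 41 were detected. Selenop, the selenium carrier, stood at 8.72 ± 0.44, Rarres2, the chemokine-like chemerin, at 7.89 ± 0.37 and Fetub, fetuin-B, at 7.71 ± 0.13. All 32 iron and haem genes were detected and 18 were bright. Fth1, the ferritin heavy chain, stood at 8.90 ± 0.24 and Ftl1, the light chain, at 8.22 ± 0.11. Alas1, the widely expressed form of the first haem-synthesis enzyme, gave 5.79, 6.95 and 7.28 and had the largest spread of the list. Hamp, the iron hormone hepcidin, gave 7.26, 6.99 and 6.12.

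Of 58 transcription factors, 53 were detected and 17 were bright, with a median of 2.85. Atf5 (7.45 ± 0.12), Srebf1 (6.60 ± 0.20), the driver of lipogenesis, Rxra (6.15 ± 0.21), the partner of many nuclear receptors, and Creb3l3 (5.79 ± 0.15) led. Cux2, Nr2f1 and Ppard were not well above background. Genes that handle or answer glucocorticoids were detected in 24 of 25 cases and bright in 8. H6pd (6.05 ± 0.22), Hsp90ab1 (6.03 ± 0.17) and Serpina6, the corticosteroid-binding globulin (5.76 ± 0.12), were bright. Nr3c1, the glucocorticoid receptor itself, gave 2.54, 2.73 and 2.71 on its brightest of 4 probes and was detected without being bright. It falls outside the rule for named genes and was added because the other arrays of the series concern that receptor.

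Whole liver mixes both zones, and both sets of zonal markers were detected in full. Of 25 pericentral genes, 11 were bright. Akr1c6 stood at 9.19 ± 0.44 and Oat, ornithine aminotransferase, at 7.11 ± 0.24. Of 26 periportal genes, 17 were bright, among them Cyp2f2 (8.15 ± 0.18) and Ass1 (7.98 ± 0.10). These arrays hold no position within the lobule.

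In whole tissue, fewer cells of a type and less RNA per cell cannot be told apart. Of 33 Kupffer cell and macrophage genes, 31 were detected and 4 were bright, with a median of 1.80. Lyz2, a lysozyme, gave 6.31, 5.72 and 5.06, Cd5l, a macrophage-secreted protein, gave 5.82, 5.85 and 5.40, and Clec4f, a lectin of mouse Kupffer cells, gave 4.69, 4.50 and 4.22. The fourth was Nr1h3, a sterol receptor that hepatocytes also use. Of the 31 detected, none was highest on replicate 4 and 26 were lowest there, but 8 were highest on replicate 4 under normexp background correction.

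Endothelial genes were detected in 31 of 32 cases and none was bright, with a median of 0.83. Clec4g, a lectin of sinusoidal endothelium, was the brightest at 4.36, 4.08 and 3.90, followed by Gpr182 (3.32 ± 0.28) and Ptprb (2.75 ± 0.049). Of 34 stellate cell and fibroblast genes, 30 were detected and 3 were bright, with a median of 0.12. Dcn, the matrix proteoglycan decorin, gave 6.34, 5.38 and 5.58, Ecm1 5.40 ± 0.34 and Cxcl12 5.21 ± 0.088. Lox, which crosslinks collagen, was not well above background.

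Of 24 cholangiocyte genes, 16 (66.7%) were detected and 2 (8.33%) were bright, near the 64.8% and 8.51% of all named genes. The bright 2 were Krt18 (7.55 ± 0.092) and Krt8 (6.55 ± 0.23), keratins that hepatocytes share. The list's median was -1.84. Cldn4, Ggt1 and Sctr, the secretin receptor, were not well above background. Krt19, a keratin of bile duct cells, gave -2.07, -1.90 and -2.05; it falls outside the rule for named genes. Of 29 lymphocyte genes, 18 (62.1%) were detected, near the 64.8% of all named genes, and none was bright, with a median of -2.92. Cd74, the invariant chain, was brightest at 3.23 ± 0.10, and Pax5, a B cell factor, was not well above background. Of 23 myeloid and dendritic genes, 11 were detected and 1 was bright, Bst2 (6.59 ± 0.29), an interferon-responsive gene of many cell types. Elane and Mcpt1, granule proteases of neutrophils and mast cells, were not well above background. Of 15 blood cell genes, 10 (66.7%) were detected and 2 (13.3%) were bright, against 64.8% and 8.51% of all named genes. The bright 2 were Alas2 and Hba-a1 (7.53, 6.56 and 6.98), an alpha globin with a near-identical copy. The part of blood in other values was not tested.

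Counts of detected genes on the lists of dim genes moved with the detection rule: under the flag for a positive and significant signal, 42 organ genes, 12 fetal liver genes and 17 myeloid genes were detected. Of 67 genes that define other organs, 24 were detected, 24 were partly detected and 19 (28.4%) were not well above background, against 17.6% over all named genes. The single bright gene was Fabp2, the intestinal fatty acid carrier, at 7.04, 5.95 and 5.76. Cdx2, Cpa1, Crx, Ddx4, Lct and Lep, of gut, pancreas, retina, germ cells, gut and fat, were among the 19. Of 16 fetal liver genes, 7 were detected, against 64.8% of all named genes, and 1 was bright, Cyp3a16, which shares close copies with adult genes. The list's median was -4.36. Afp, alpha-fetoprotein, stood at -0.20 ± 0.48, and the fetal RNA-binding genes Igf2bp1 and Lin28b were not well above background. Of 32 cell cycle genes, 22 (68.8%) were detected, near the 64.8% of all named genes. None was bright, with Pcna (3.09 ± 0.14) and Tk1 (2.85 ± 0.23) at the top. Aurkb and Cdk2 were not well above background.

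Of 29 genes that respond to feeding or fasting, 28 were detected and 10 were bright. Lpin1, a phosphatidate phosphatase, gave 0.98, 2.66 and 2.41 and Igfbp1, an insulin-repressed binding protein, gave 4.08, 4.80 and 3.34; they were among the most variable of the list. Of the 28, 15 were highest on replicate 3, against 24.4% of all detected genes, and 14 were lowest on replicate 2, against 4669 of 12802. The order of this list was not tried under other settings. A gene can be both on this list and on that of fatty acid synthesis, so the 2 lists are not separate observations. Of 29 immediate early and stress genes, 26 were detected and 3 were bright. Hspa5, the chaperone of the endoplasmic reticulum, gave 6.96, 6.90 and 6.92 and Junb gave 5.49, 5.68 and 5.72, with little spread. Egr1, a factor induced within minutes of a stimulus, gave 2.50, 1.06 and 1.09 and was highest on replicate 2, while Dusp1, a phosphatase of the same class of early genes, gave -0.01, 0.52 and 1.68 and was highest on replicate 4.

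Of 20 housekeeping genes, 19 were detected and 10 were bright. The exception was Gapdh, a glycolytic enzyme that every cell uses. Its only probe gave -3.02, -4.15 and -2.09 and was well above background on 2 arrays. The probe (mm7 chr6:125188005-125188064, minus strand) is shown because its low signal goes against the known abundance of the transcript:
Gapdh probe: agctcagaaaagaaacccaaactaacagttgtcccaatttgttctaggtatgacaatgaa

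Pigt and Ptprz1 stood at ranks 12 and 13 on 1 probe each. Pigt, which attaches proteins to a lipid anchor, gave 10.68, 9.30 and 8.47 on that probe and -2.39 on its other. Ptprz1, a receptor phosphatase of the nervous system, gave 10.01, 9.11 and 9.33 on that probe, and from -4.19 down to -6.997 on the other 3. The array's design places the Pigt probe on chromosome 17, while RefSeq places the gene on chromosome 2. The same comparison differed for 134 of 19720 genes. These ranks are not read as levels of Pigt and Ptprz1 RNA, and which RNA the bright probes bound was not tested. Their bright probes, Pigt at mm7 chr17:38065479-38065538 and Ptprz1 at mm7 chr6:22942347-22942406, both on the plus strand, are shown because these ranks depend on them alone:
Pigt probe: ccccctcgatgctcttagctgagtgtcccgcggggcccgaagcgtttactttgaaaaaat
Ptprz1 probe: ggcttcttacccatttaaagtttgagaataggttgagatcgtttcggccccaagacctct

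Across the 12802 detected genes, which are not independent replicates, Pearson's r was 0.991 between replicates 3 and 4, which share a slide and a scan day, and 0.980 and 0.981 between replicate 2 and each of them. The median absolute difference was 0.147 between replicates 3 and 4, against 0.344 and 0.365 for the pairs with replicate 2. Replicate 2 was the array farthest from the median in 61.0% of detected genes. The slide, the scan day and the sample cannot be told apart as the source of this.

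The median SD of a detected gene was 0.242, and 1786 genes had an SD above 0.5. The median was 0.104 without replicate 2 and 0.509 under normexp background correction, which compressed dim values on replicate 2, as given with the clock genes. Of 147 probes printed as 10 spots and well above background at all of them, the median SD was 0.0837 between spots of an array and 0.241 between arrays, and 131 varied more between arrays than within one. The median SD was 0.255 for bright genes, 0.210 for detected genes above 0 that were not bright and 0.281 for those below 0.

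Of the 20 detected genes with the largest spread, 14 were highest on replicate 3. Ccdc66, a protein of cilia and centrosomes, gave -2.19, 9.19 and -2.22 on its brightest probe, and its other probes averaged -5.57 and -5.91. Zfp819, a zinc finger gene, gave -3.82, 6.19 and -4.07. In both, 1 array stood far above the other 2, which lay close together. Csf2rb2, a cytokine receptor chain, gave 3.52, -1.28 and -1.53 and Col27a1, a fibrillar collagen, gave 3.03, -1.43 and -1.52, each high on replicate 2 alone.

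Members of named physiological groups also spread. All 31 acute-phase genes, which the liver induces on inflammation, were detected and 14 were bright. An SD above 0.5 was found in 10 of the 31, against 1786 of all 12802 detected genes. Such spread was not particular to acute-phase and clock genes. It held for 10 of 24 detected genes of other organs and 8 of 31 detected Kupffer cell and macrophage genes. It held for 0 of 31 detected clotting genes and 0 of 25 pericentral genes. Saa1 gave 7.53, 9.49 and 7.42, Saa2 7.74, 9.40 and 7.58 and Saa3 5.16, 7.68 and 5.17. These are serum amyloid A genes, and Saa1 and Saa2 are near-identical. Lcn2, an iron-scavenging lipocalin, gave -1.78, 2.49 and -0.34. Replicate 3 was the high array in all 4 genes, under each of the 5 settings tried, and Saa1, Saa2, Saa3 and Lcn2 were chosen from the list by their brightness or spread. Over the whole list, 12 of 31 members (38.7%) were highest on replicate 3, against 24.4% of all detected genes. Another 12 (38.7%) were highest on replicate 2, against 48.3%, and 7 on replicate 4. Under quantile normalization 19 were highest on replicate 3, and under normexp background correction 12 were, with 15 on replicate 4. Saa4, a constitutive serum amyloid gene named after its values were seen, gave 6.79, 5.82 and 6.03, with replicate 3 lowest. Hp gave 9.79, 9.54 and 9.39 and Itih3 7.70, 7.73 and 7.73.

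Clock genes, whose levels cycle over the day, were detected in 19 of 23 cases. Of the 19, 8 had an SD above 0.5, against 1786 of all 12802 detected genes. Of the 19, 12 were highest on replicate 3, against 24.4% of all detected genes, and 12 were lowest on replicate 2, against 4669 of 12802. Per1 gave -2.73, 0.34 and -0.66, Usp2 -2.47, 0.76 and -0.29 and Dbp 5.67, 6.94 and 6.44, all lowest on replicate 2 and highest on replicate 3. Arntl, which encodes the activator that peaks in antiphase to Dbp, ran the other way at -0.31, -1.48 and -0.45, with replicate 3 lowest; it was chosen after its values were seen. Under normexp background correction Dbp kept that order, while Per1 and Usp2 were lowest on replicate 4 (-0.27, 0.29 and -0.50 for Per1, -0.26, 0.55 and -0.27 for Usp2). That correction compressed dim values on replicate 2, where Per1, Usp2 and Zfp819 came to lie at -0.27, -0.26 and -0.29. Under it the 19 genes were highest on replicate 3 in 7 cases and on replicate 4 in 8. The median of replicate 2 minus the mean of the others stayed negative, at -0.57 against -0.61. The part of time of day was not tested.

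**Figure D4:**
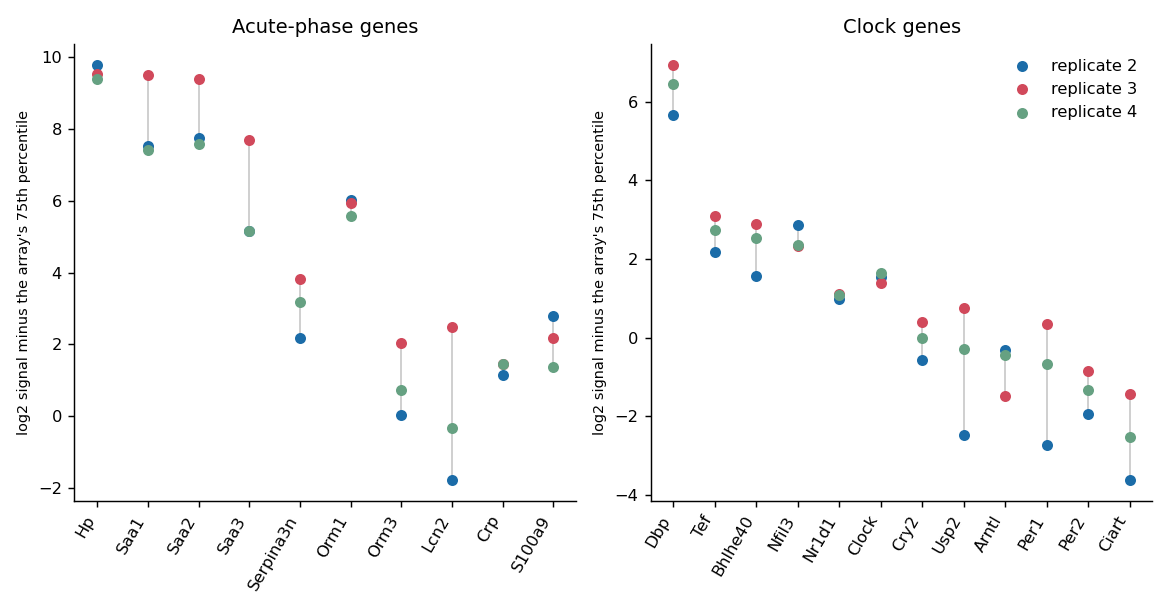
Signal of 10 acute-phase genes (left) and 12 clock genes (right) on each untreated array, in log2 units relative to the array's 75th percentile, with 1 colour per replicate and a grey line from the lowest to the highest. Replicate 3 is the highest array for Saa1, Saa2, Saa3 and Lcn2, and replicate 2 the lowest for Per1, Usp2 and Dbp.

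Ribosomal protein genes, grouped after their values were seen, were highest on replicate 2 in 77 of 81 detected genes, by a median of 0.90 over the mean of replicates 3 and 4, against 48.3% of all detected genes. Quantile normalization reduced that median to 0.48, with 72 of the 81 highest on replicate 2. Under normexp background correction, 77 of the 81 were highest on replicate 4 instead, so this order depends on the processing. Normexp compressed the scale of replicate 2: Alb went from 10.70 to 8.90 there and Zfp819 from -3.82 to -0.29. On replicate 4 the same genes went from 9.81 to 9.55 and from -4.07 to -2.62. The part of this compression in the turned order was not tested. Bright genes as a whole were highest on replicate 2 in 69.9% of cases (1175 of 1682), against 48.3% of all detected genes. That count was 836 under array median scaling and 725 under quantile normalization, and under normexp 1644 of the 1682 were highest on replicate 4.

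**Figure D5:**
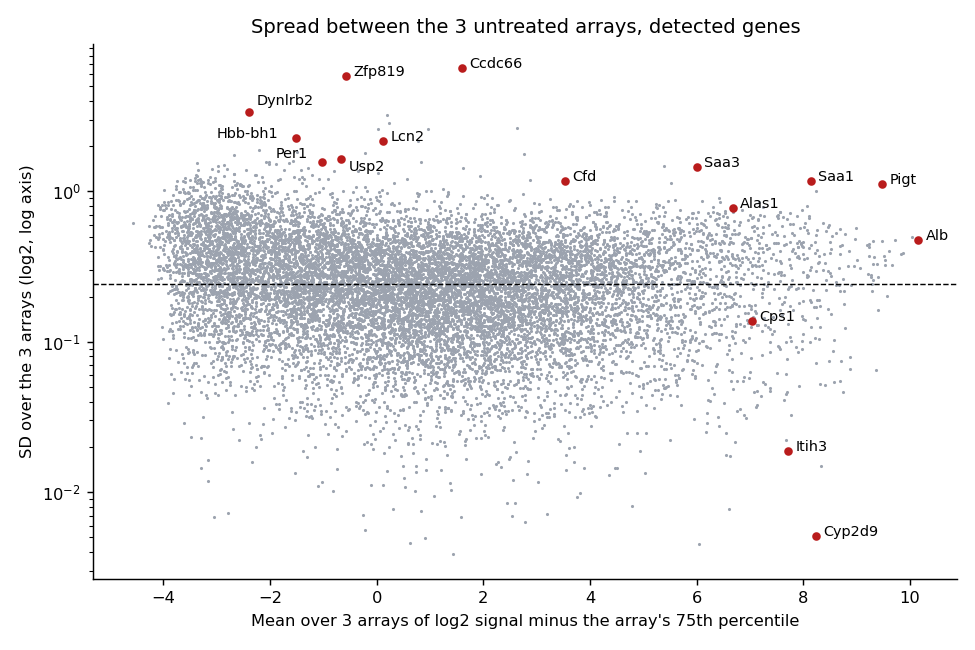
SD over the 3 untreated arrays (log axis) against mean signal for detected genes, both in log2 units, with named genes in red and the median SD as a dashed line. The median SD is 0.242, and Ccdc66 and Zfp819 stand far above the rest.

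Promoters of the brightest genes were read from RefSeq (build GRCm38.p6), as 250 bases before to 50 after the start. The hexamer TATAAA, searched on both strands, was in 27.2% of the 92 promoters found for 78 of the 100 brightest genes, 8.66% of promoters of detected genes, 19.1% of promoters of genes not well above background and 13.6% of all promoters. GTTAAT, a core motif of sites for the hepatocyte factor HNF1, was in 18.5%, 5.14%, 8.14% and 7.10% of the same sets. TGTTTAC, a site of FOXA factors, was in 8.70% (8 of 92 promoters), 2.77%, 3.97% and 3.65%. CAAAGTCCA, a site of HNF4A, was in 2.17% (only 2 of 92 promoters), 0.518%, 0.258% and 0.475%. TTGCGCAA, a site of C/EBP factors, was in none of the 92 and in 0.183% of all. The median GC content was 52.2% for the brightest set, 60% for detected genes, 50.7% for genes not well above background and 52.7% for all promoters. A match is a description of the letters and not a binding site.

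Promoters of 3 bright genes with a single match show where these letters lie, with the match in capitals. Alb (chr5:90460620-90460919, plus strand) holds GTTAAT from base 219. Fgb (chr3:83049814-83050113, minus strand) holds its reverse complement ATTAAC from base 222, and Cyp2e1 (chr7:140763569-140763868, plus strand) holds TATAAA from base 220:
Alb promoter: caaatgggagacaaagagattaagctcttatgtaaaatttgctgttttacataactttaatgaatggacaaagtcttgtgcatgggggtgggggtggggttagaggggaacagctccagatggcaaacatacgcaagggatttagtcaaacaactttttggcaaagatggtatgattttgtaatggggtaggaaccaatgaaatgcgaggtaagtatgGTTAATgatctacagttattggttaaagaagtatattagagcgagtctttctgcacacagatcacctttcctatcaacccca
Fgb promoter: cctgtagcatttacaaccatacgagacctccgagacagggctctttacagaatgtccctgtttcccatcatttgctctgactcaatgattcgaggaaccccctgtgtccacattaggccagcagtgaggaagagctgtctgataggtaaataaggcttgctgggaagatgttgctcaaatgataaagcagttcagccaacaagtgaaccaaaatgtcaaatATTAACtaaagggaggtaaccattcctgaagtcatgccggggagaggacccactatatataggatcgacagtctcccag
Cyp2e1 promoter: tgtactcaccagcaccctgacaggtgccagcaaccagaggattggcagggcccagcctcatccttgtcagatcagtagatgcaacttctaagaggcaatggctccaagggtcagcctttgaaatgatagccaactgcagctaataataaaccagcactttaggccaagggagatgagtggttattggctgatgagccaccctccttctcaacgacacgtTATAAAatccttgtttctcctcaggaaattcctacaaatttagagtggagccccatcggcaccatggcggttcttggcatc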

How the data were processed

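Liver RNA was hybridised to single-colour Agilent arrays and scanned, 1 array per sample, and the 3 untreated arrays were used. Spot intensities (processed signal, background subtracted) and the flag for a spot well above background were deposited by the authors as Agilent Feature Extraction output, version 9.5 per the submitters' processing notes. A deposited series table holds the same processed intensity values, and the largest difference from the scanner values was 0. The log2 of each intensity minus the log2 of the array's 75th percentile was computed here, with control spots and outlier-flagged spots left out and the spots of a probe averaged. Of 41174 probes, 22951 took their name from a RefSeq accession, 6659 from a current symbol, 3109 from an outdated one and 294 from a gene number, while 8161 kept the files' own. The brightest probe by mean stands for a gene.

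The 40 gene lists hold 1378 entries, 1341 of them on the array. These entries are 1139 genes, since a gene can be on several lists. The members and lists were chosen with earlier results of these data known. Named genes were the 30 brightest, the members of each list that were brightest, not well above background or most variable, all isoform forms, the 4 given markers and the 20 genes of largest SD; a few of these are not reported here. Probe coordinates are of build mm7, and no annotation of that build was used here. Alternatives were other scalings, normexp background correction with limma 3.58.1 in R 4.3.3 (offset 50), other detection flags, the median over a gene's probes, and leaving out each array. The code that averages spots, picks a gene's brightest probe, counts flagged arrays and takes the SD was run on simulated data. That run checked the code only. Its simulated arrays all had the same spread, unlike these 3, and it did not cover the ranking. With 3 arrays the number of arrays limits the precision.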

Additional observations from a re-analysis of the deposited data

How the results depend on the processing

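The count of detected genes stayed within 1.5 times of 12802 under every detection rule and with each array left out, while the 3477 genes not well above background became 916 with the flag for a positive and significant signal and 2154 with the 99th percentile of negative control spots. Leaving out replicate 2, 3 or 4 in turn gave a median SD between 0.104 (without replicate 2) and 0.258 (without replicate 3), against 0.242 over all 3 arrays, and normexp background correction gave 0.509. Of the 30 brightest genes, 29 remained under normexp and 22 with the median over a gene's probes, and 30 remained under the other scalings and with each array left out. The shares of the brightness ranking of 33 named genes stayed within their spread under the array median, the quantile and the alternative percentile scaling, while 15 moved under normexp, 15 with the median over a gene's probes, and 3, 1 and 6 without replicate 2, 3 or 4. Of 40 list counts, 3 moved over 1.5 times with the positive and significant flag (other organs 24 to 42, fetal liver 7 to 12, myeloid 11 to 17) and 2 with the negative control percentile (other organs to 12, lymphocytes 18 to 11). No paired analysis was possible because no groups were compared and no result comes from a test. Dim genes are limited by the level called well above background, which was highest on replicate 3.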
